A study of Mus musculus with 13 samples.

Results

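Heat shock proteins and DnaJ proteins were followed in round spermatids, the haploid cells that have finished meiosis, of mice with reduced Slx/Slxl1, Sly or both. The genes were chosen by symbol: every array probe annotated to a name starting with Hspa, Hspb, Hspd, Hspe, Hsph, Hsp90, Dnaja, Dnajb or Dnajc, and detected (detection p under 0.05) on at least 3 of the 13 arrays. The array held 135 probes for 68 such genes, and 87 probes for 57 genes passed, among 14660 genes and unnamed features tested in all. Of the 57 genes, 49 were detected on all 13 arrays. The 11 genes that did not pass were Dnaja1, Dnajb14, Dnajb5, Dnajc12, Dnajc14, Hspa12a, Hspa14, Hspa1a, Hspb11, Hspb2 and Hspb3. Hspbap1 and Hspbp1 were included through their names only, since they bind heat shock proteins and are not chaperones of these families.

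All males had the MF1YRIII background and were about 8 weeks old. The 4 WT samples carried no transgene, the 3 shSLY samples a transgene for a short hairpin RNA against Sly, the 3 shSLX1 samples one against Slx and Slxl1, and the 3 shSLX1shSLY samples both. Each sample was a preparation enriched for round spermatids from the pooled testes of several males. The p-values below therefore measure the spread between such preparations. In fits without a block, that spread includes differences between the array sets described below. In bulk preparations, fewer cells of a type and less RNA per cell cannot be told apart.

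Heat shock protein 70 (Hsp70) chaperones bind unfolded stretches of protein and release them on hydrolysing ATP, DnaJ proteins bring them their clients and start that hydrolysis, and heat shock protein 90 (Hsp90) chaperones act later on near-native clients. Male germ cells are known for chaperones of their own, such as Hspa2 and Hspa1l, whereas Hspa1a, Hspa1b, Hspb1 and Hsph1 are induced in many cells by heat. Other members are fixed to a compartment: Hspa5 and Hsp90b1 work in the endoplasmic reticulum (ER), and Hspa9, Hspd1 and Hspe1 in mitochondria.

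The promoters of 4 genes on which the results turn are shown because they carry the letters of a heat shock element, the site of heat shock factors, or of an ER stress element, through which ER chaperones are induced together. They are 300-base windows, 250 bases before to 50 after the gene's start, 5′ to 3′ on the gene's strand, from RefSeq (GRCm38.p6). Capitals mark ER stress element letters (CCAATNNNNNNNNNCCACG, either strand) in Hsp90b1 (chr10:86705395-86705694, minus strand) and Hspa5 (chr2:34771840-34772139, plus strand). In Hspe1 (chr1:55087898-55088197, plus strand) they mark 2 overlapping matches of a heat shock element of 3 units (GAANNTTCNNGAA, either strand), and in Hspa1b (chr17:34959189-34959488, minus strand) 1 match of a heat shock element of 2 units (GAANNTTC).
Hsp90b1: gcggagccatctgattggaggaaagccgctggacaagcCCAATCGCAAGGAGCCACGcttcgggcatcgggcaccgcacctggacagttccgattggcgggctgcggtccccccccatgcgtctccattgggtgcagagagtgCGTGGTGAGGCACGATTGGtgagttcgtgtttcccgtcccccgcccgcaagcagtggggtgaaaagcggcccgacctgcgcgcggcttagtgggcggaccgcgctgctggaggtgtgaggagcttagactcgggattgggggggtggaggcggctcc
Hspa5: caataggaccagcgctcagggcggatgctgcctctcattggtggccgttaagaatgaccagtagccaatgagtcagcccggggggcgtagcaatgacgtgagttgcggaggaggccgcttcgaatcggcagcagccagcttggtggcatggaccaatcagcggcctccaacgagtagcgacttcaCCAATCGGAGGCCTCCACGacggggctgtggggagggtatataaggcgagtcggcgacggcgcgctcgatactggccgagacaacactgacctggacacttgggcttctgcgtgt
Hspe1: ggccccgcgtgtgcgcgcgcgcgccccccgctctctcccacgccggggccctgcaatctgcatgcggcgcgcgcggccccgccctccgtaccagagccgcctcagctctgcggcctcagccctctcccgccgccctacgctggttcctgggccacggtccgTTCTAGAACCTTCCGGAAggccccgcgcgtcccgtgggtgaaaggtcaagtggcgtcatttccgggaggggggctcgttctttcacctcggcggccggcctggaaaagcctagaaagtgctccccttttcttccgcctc
Hspa1b: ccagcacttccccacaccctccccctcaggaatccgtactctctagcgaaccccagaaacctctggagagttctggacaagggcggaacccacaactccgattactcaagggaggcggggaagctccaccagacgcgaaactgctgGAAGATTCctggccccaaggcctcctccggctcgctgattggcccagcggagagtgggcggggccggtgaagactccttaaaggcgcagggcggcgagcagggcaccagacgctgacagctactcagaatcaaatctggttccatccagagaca

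At least 1 window was matched for 47 of the 57 genes. Members are counted below as genes with a match in any of their windows, and the background as single windows. Some members, such as Dnajb6 and Hsph1, have several windows, which can raise the members' shares. The ER stress element was found in 3 of them, Dnajc3, Hsp90b1 and Hspa5 (6.38%), against 0.119% of all 32851 windows. The element of 3 units was found in Dnajb6, Hspd1, Hspe1 and Hsph1 (8.51%, against 0.603% of all windows). Hspd1 and Hspe1, the chaperonin and its cap, are transcribed away from each other, and their windows overlap, so both hold the same matches. The element of 2 units was counted as either GAANNTTC or TTCNNGAA, 2 arrangements that the longer one both contains. Counted so, it was in 12 of the 47 (25.5%) and in 15.1% of all windows. Dnajb4 and Dnajc10 matched only as TTCNNGAA. A match is a description of the letters and not evidence of binding.

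Levels below are log2 of background-corrected, quantile-normalized signal, taken for each gene from its brightest kept probe, and are compared between samples and never between genes. A gene is called changed where its adjusted p in limma (Benjamini-Hochberg over all 14660) is under 0.05 and the fold over 1.5. The arrays had 16110 to 19057 detected probes, and replicates of a group correlated at 0.976 to 0.996. Round spermatid markers were detected on every array, with summed signals of 61062 to 73400 in WT and 65384 to 70229 in shSLX1shSLY, and none of the 6 was called in that comparison. Of markers of other cells, 2 of 8 Sertoli (Amh, Gata1), 3 of 6 Leydig (Star, Hsd3b1, Hsd3b6) and 3 of 6 spermatocyte genes (Sycp3, Dmc1, Hormad1) were detected on no array. Others were present: the Sertoli genes Aard, Cst9, Cldn11 and Cst12, the Leydig gene Insl3 and the spermatocyte genes Piwil2, Spo11 and Sycp1 were detected on all 13. Summed spermatocyte signals were 1610 to 2142 in WT and 1928 to 2499 in shSLX1shSLY, and summed Sertoli signals 700 to 1133 and 504 to 1212. Summed Leydig signals were 161 to 197 in WT and 241 to 360 in shSLX1shSLY, without overlap. Summed macrophage signals overlapped, at 275 to 603 and 351 to 495. Of the 7 macrophage genes tested, 1 was called higher there, Adgre1 (0.90, adjusted p = 0.0405, limma), where 4.86% of all genes were. The part of these cells in the chaperone values was not tested. The single Sly probe read 9.85 to 10.35 in WT and 10.08 to 10.71 in shSLY, not lower, so this probe is no check of the labels. Slx and Slxl1 were not analysed here.

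The arrays fell into 3 sets that crossed the groups. The sets were found from probes detected on no array, which hold background only, and the labels do not name them. Replicates 1 and 2 of WT and of shSLY made up the first set. Replicates 3 and 4 of WT, together with replicates 1 and 2 of shSLX1, made up the second. The third joined every shSLX1shSLY array to the last replicate (3) of shSLY and that of shSLX1. Background correlated at 0.536 to 0.573 within the third set, at 0.286 to 0.367 between it and the first, and at 0.318 to 0.357 between it and the second. The first and second sets were not clearly apart, at 0.462 to 0.553 between them, 0.622 to 0.655 within the first and 0.441 to 0.490 within the second. The third set held no WT array, so values are given below also with the set as a block, where the set's own difference is read from the shSLY and shSLX1 arrays.

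**Figure D1:**
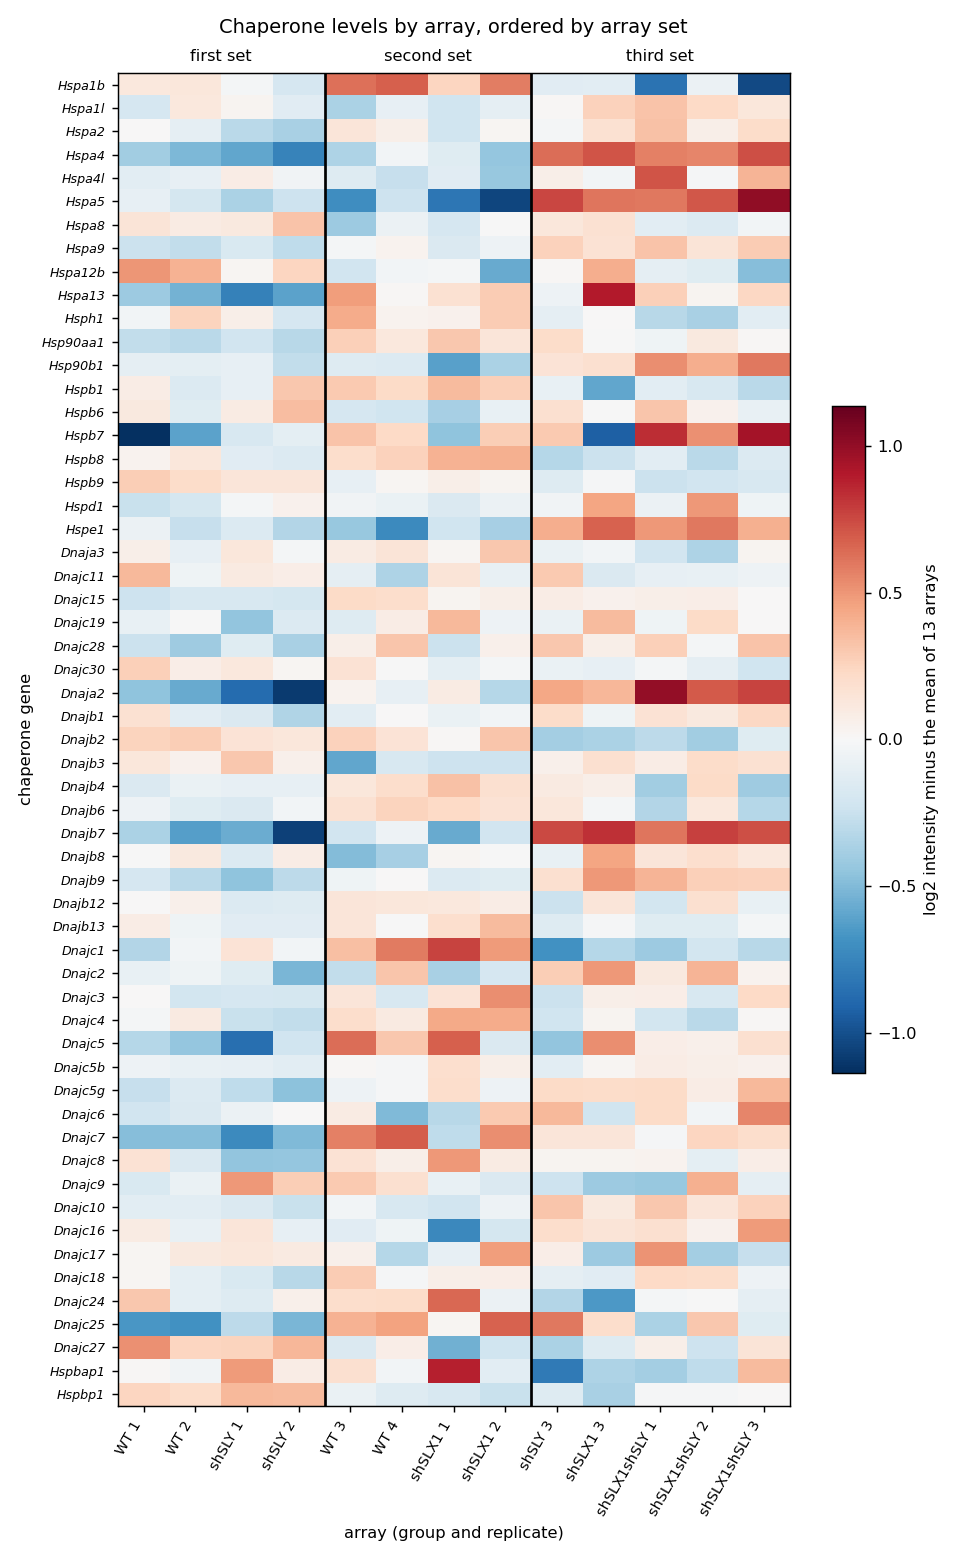
Level of each of the 57 genes (rows) on each of the 13 arrays (columns, ordered by array set), as log2 signal minus the gene's mean over the 13 arrays. Colour stands for that difference; the 5 arrays of the third set share the high values of genes such as Hspa5, Dnajb7 and Hspa4, whether or not they are shSLX1shSLY arrays.

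No chaperone gene was called in round spermatids with either transgene alone. In shSLY against WT, 0 of 57 were called higher or lower by limma, where 2.33% of all genes were called higher and 0.75% lower. Of the 57, 6 had an unadjusted p under 0.05, and so had 2215 of all 14660 genes. The members' log2 fold changes ran from -0.56 to 0.36 with a median of -0.06, against -0.02 over all genes. In shSLX1 against WT, 0 of 57 were called, where 1.67% of all genes were called higher and 0.109% lower. The members' log2 fold changes ran from -0.47 to 0.57. An unadjusted p under 0.05 was found for 1777 of all 14660 genes and for 2 members. These were Dnajc27 (-0.47), which carries a DnaJ domain beside a GTPase fold, and Hspa13 (0.57), an Hsp70 relative of the ER. Dnajc27 falls outside the rule for named genes and was chosen after its values were seen.

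Immediate early genes moved in shSLY and the stress-induced chaperones did not pass the test there. Of 8 immediate early genes tested, which respond within minutes to handling and growth signals, 5 were called higher in shSLY against WT, where 2.33% of all genes were, with a median log2 fold change of 1.21. The 6 stress-induced chaperones tested had a median of -0.07, and Hspa1b, the only one with an unadjusted p under 0.05, stood at -0.50. Summed Leydig markers were 262 to 672 in shSLY and 161 to 197 in WT, without overlap, and Insl3 stood at 1.28 (adjusted p = 0.0673). Summed macrophage markers were 517 to 622 and 275 to 603, and the red blood cell gene Hba-a1 stood at 1.96 (adjusted p = 0.178). The part of these cells in the immediate early values was not tested.

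With both transgenes, 3 chaperone genes were higher and 1 lower than in WT. Dnaja2, Hsp90b1 and Hspe1 were called higher (3 of 57, 5.26%), where 4.86% of all genes were called higher. Hspa1b was called lower (1 of 57, 1.75%), where 4.03% of all genes were called lower. The shares called in either direction were thus close to or under those of all genes. With these 4 included, 18 of 57 members had an unadjusted p under 0.05, and so had 4551 of all 14660 genes. The median log2 fold change was 0.08 over the members and -0.02 over all genes.

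Dnaja2 (chr8:85537633-85555361) encodes a cytosolic DnaJ partner of Hsp70. Its level was 6.66, 6.54, 7.15 and 7.02 in WT and 8.11, 7.81 and 7.88 in shSLX1shSLY. It was 7.21, 6.79 and 7.49 in shSLX1, partly within the WT range, and 6.24, 6.03 and 7.56 in shSLY. The 3 shSLX1shSLY arrays lay above all 10 others. The gene was 2.13-fold higher than in WT (log2 fold change 1.09, SE 0.30, adjusted p = 0.0349, limma). A second, separate probe of Dnaja2 gave 0.51 (adjusted p = 0.173) and was not called.

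Hsp90b1 (chr10:86690841-86705444), also known as Grp94, is the Hsp90 of the ER. Its level in WT was close to constant, at 11.54 ± 0.03 (SD, n = 4), and was 12.19, 12.08 and 12.26 in shSLX1shSLY. It read 11.57, 11.39 and 11.82 in shSLY and 11.05, 11.30 and 11.85 in shSLX1, so that the third replicate of each of these groups was its highest. The gene was 1.56-fold higher in shSLX1shSLY than in WT (0.64, SE 0.17, adjusted p = 0.0328, limma).

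Hspe1 (chr1:55088148-55091317) encodes the small cap of the mitochondrial chaperonin. The WT arrays read 6.47, 6.27, 6.11 and 5.81, and the shSLX1shSLY arrays 7.03, 7.13 and 6.94. The shSLY arrays read 6.38, 6.20 and 6.95, and the shSLX1 arrays 6.31, 6.16 and 7.21. The shSLX1shSLY arrays lay above all WT arrays but not above the third replicates of shSLY and shSLX1. It was 1.83-fold higher than in WT (0.87, SE 0.24, adjusted p = 0.0380, limma). RefSeq lists several Hspe1 pseudogenes, so what its probe reads is uncertain. Its chaperonin partner Hspd1, outside the rule for named genes, read 7.15 to 7.36 in WT and 7.34, 7.89 and 7.36 in shSLX1shSLY.

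Hspa1b (chr17:34956429-34959238) is the heat-inducible Hsp70. Its level was 10.22, 10.22, 10.72 and 10.77 in WT, 10.07, 9.90 and 9.97 in shSLY, 10.33, 10.67 and 9.97 in shSLX1, and 9.26, 10.03 and 9.07 in shSLX1shSLY. All 3 shSLX1shSLY arrays lay below all WT arrays, and the second overlapped with shSLY and shSLX1. The gene was 2.05-fold lower than in WT (-1.03, SE 0.23, adjusted p = 0.0191, limma). Its near-identical copy Hspa1a had probes detected on at most 1 array, so that signal of the pair could be split between them. A second Hspa1b probe, for the same transcript record, was detected on 0 of 13 arrays, so the call rests on 1 probe and what that probe reads was not tested.

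**Figure D2:**
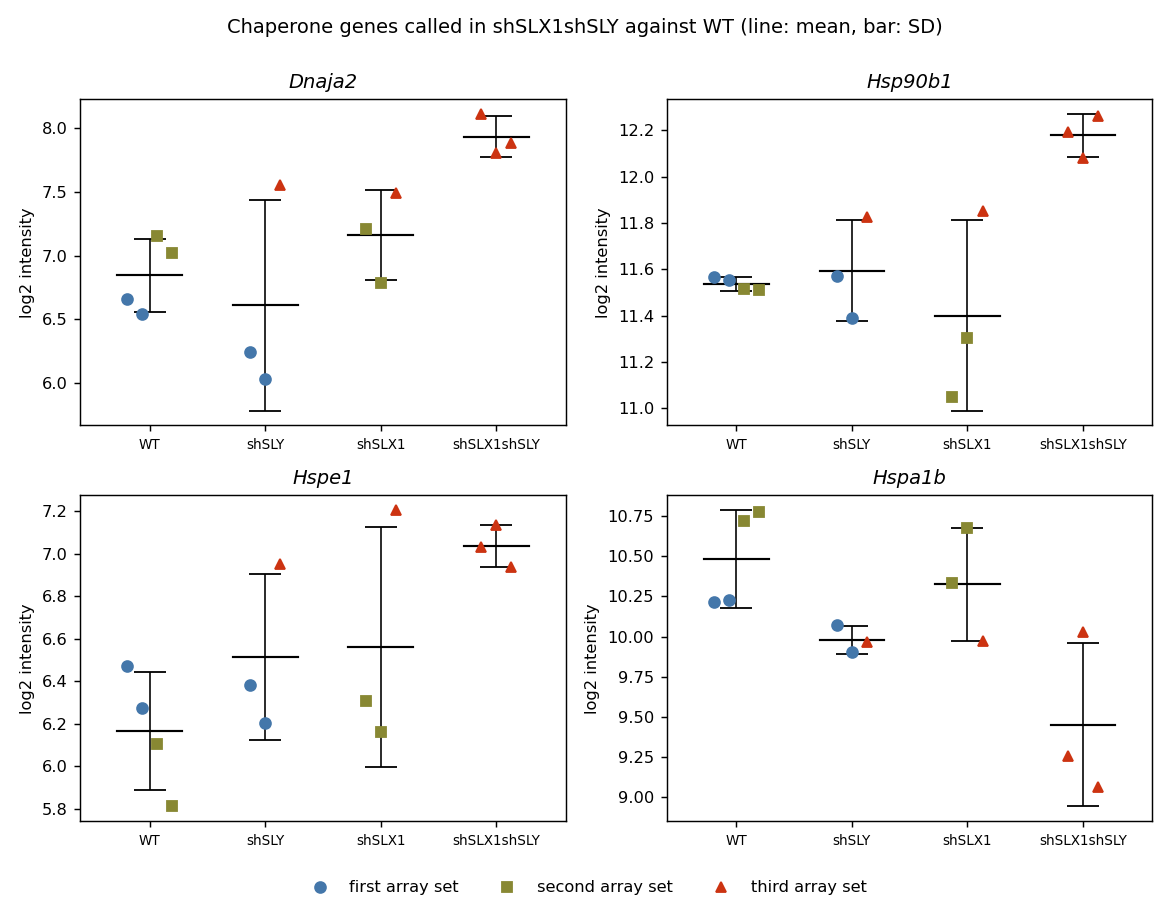
Log2 signal of Dnaja2, Hsp90b1, Hspe1 and Hspa1b on each array, by group; the marker shows the array set, the line the group mean and the bar 1 SD. For the 3 genes called higher, the shSLY and shSLX1 arrays of the third set lie nearest to the shSLX1shSLY arrays (Hspe1 6.95 and 7.21 against 6.94 to 7.13).

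These 4 calls rested on few arrays and on the comparison between array sets. The same held for calls over all genes, which fell from 1303 to 44 with the array set as a block. No member was called then: Dnaja2 stood at 0.13 (adjusted p = 0.869, limma), Hsp90b1 at 0.13 (0.831), Hspe1 at 0.06 (0.944) and Hspa1b at -0.76 (0.322). A block of the third set against all other arrays, added after the data were seen, also left 0 members called, and 15 calls over all genes. Leaving out any 1 of the 4 WT or 3 shSLX1shSLY arrays also ended the calls of Dnaja2 (0.99 to 1.19, adjusted p 0.0524 to 0.114), Hsp90b1 (0.60 to 0.69, adjusted p 0.0622 to 0.108) and Hspe1 (0.75 to 0.97, adjusted p 0.0514 to 0.105). The call of Hspa1b ended without WT replicate 3 (-0.95, adjusted p = 0.0508) or 4 (-0.94, adjusted p = 0.0511), and without shSLX1shSLY replicate 1 (-0.94, adjusted p = 0.0779) or 3 (-0.84, adjusted p = 0.0833). Over all genes, leaving out 1 WT or shSLX1shSLY array left 262 to 638 calls.

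Within the third set, the 4 genes differed in how far shSLX1shSLY stood from the 2 single-transgene arrays, a comparison with no replicate on the single side and no test. The shSLX1shSLY mean exceeded shSLY replicate 3 by 0.38 and shSLX1 replicate 3 by 0.44 for Dnaja2, and by 0.35 and 0.33 for Hsp90b1. For Hspe1 the same differences were 0.08 and -0.17, on either side of 0. Hspa1b was lower by 0.52 against each. The difference of shSLY replicate 3 from the mean of the other 2 shSLY arrays was 1.42 for Dnaja2, 0.345 for Hsp90b1, 0.66 for Hspe1 and -0.02 for Hspa1b. For shSLX1 replicate 3 against the other 2 shSLX1 arrays it was 0.49, 0.68, 0.97 and -0.53. The cause of these differences was not tested.

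**Figure D3:**
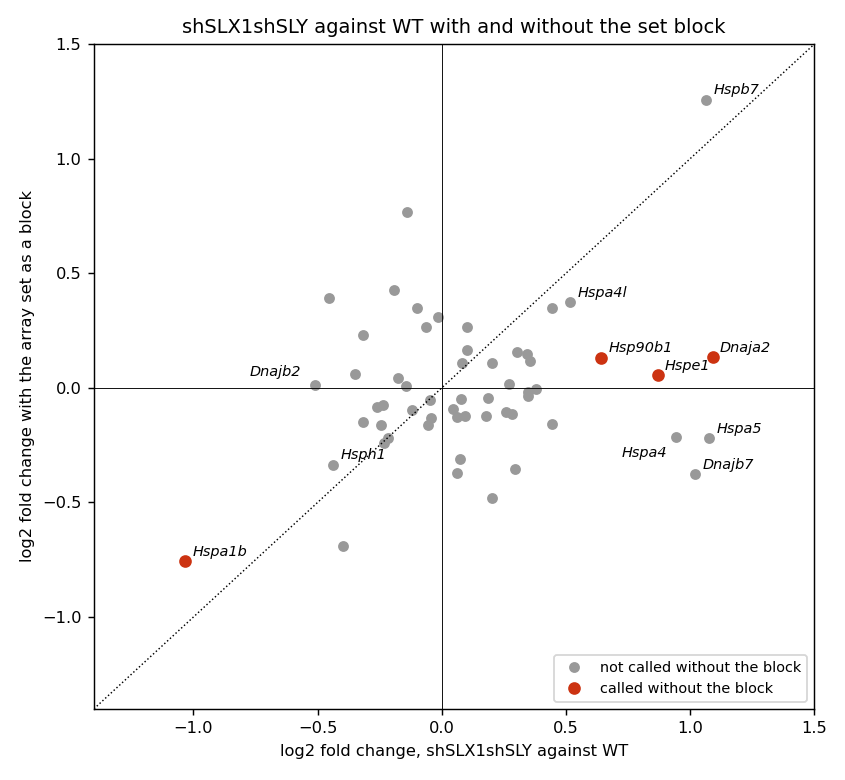
Log2 fold change of each of the 57 genes in shSLX1shSLY against WT, without (horizontal axis) and with (vertical axis) the array set as a block. The median size of the change fell from 0.26 to 0.15, the number of genes past 1.5-fold was 8 without and 4 with the block, and 27 of the 57 kept their sign.

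Members were also sorted by the order of their arrays alone, with no threshold of p or fold. The third set includes every shSLX1shSLY array, so set and transgenes are in part confounded here. All 5 arrays of the third set lay above all 8 others for 9 of 57 genes (15.8%, against 7.17% of all genes), and all 5 lay below for 1 (1.75%, against 7.11%). The 9 were Dnaja2, Dnajb7, Dnajb9, Dnajc10, Hsp90b1, Hspa4, Hspa5, Hspa9 and Hspe1, and the 1 below was Dnajb2. Hspa4 and Dnajc10 are outside the rule for named genes and are given because of these values.

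Of the 8 ER chaperones tested, 4 are in this group (Hspa5, Hsp90b1, Dnajb9 and Dnajc10) and 4 are not (Hspa13, Dnajb12, Dnajc1 and Dnajc3). Hspa5, the Hsp70 of the ER (BiP), read 5.49, 5.39, 4.88 and 5.35 in WT and 6.18, 6.29 and 6.59 in shSLX1shSLY, a difference of 1.08 that missed the threshold (adjusted p = 0.0561, limma). The shSLY arrays read 5.22, 5.35 and 6.34 and the shSLX1 arrays 4.77, 4.54 and 6.19. The shSLX1shSLY mean differed from these last arrays of each group by 0.01 and 0.16 only. Dnajb9, a DnaJ protein that partners Hspa5, stood at 0.44 (adjusted p = 0.119) and Hspa9, the mitochondrial Hsp70, at 0.38 (adjusted p = 0.115). Of these 8 ER chaperones 1 was called (Hsp90b1, higher), with a list median of 0.32, and of the 9 mitochondrial chaperones 1 (Hspe1, higher), with a median of 0.09.

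Hspa4, an Hsp110-type exchange factor that resets Hsp70, showed the same split. It read 7.83, 7.72, 7.88 and 8.20 in WT and 8.80, 8.79 and 8.96 in shSLX1shSLY (0.94, adjusted p = 0.0584, limma), but also 8.86 in shSLY replicate 3 and 8.95 in shSLX1 replicate 3. The other shSLY arrays read 7.64 and 7.47 and the other shSLX1 arrays 8.09 and 7.79. Dnajb2, a DnaJ protein that binds ubiquitin chains, was the mirror of this, at 11.60 to 11.72 in WT and 11.05 to 11.31 on the 5 arrays of the third set (-0.51 in shSLX1shSLY against WT, adjusted p = 0.0667).

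On their brightest probes, none of the 10 testis-enriched chaperones was called in any comparison. In shSLX1shSLY against WT their median log2 fold change was 0.32, against -0.02 over all genes. Of the 10, 4 had an unadjusted p under 0.05, and so had 4551 of all 14660 genes. Hspa2, the Hsp70 that meiosis in males requires, read 14.70 ± 0.10 (SD, n = 4) in WT and 14.88 ± 0.13 (SD, n = 3) in shSLX1shSLY, with overlapping arrays (0.18, 95% interval -0.13 to 0.48). Hspa1l, the spermatid Hsp70, read 12.36 to 12.83 in WT and 12.84 to 13.04 in shSLX1shSLY, without overlap (0.36, adjusted p = 0.124). Hspa4l, the germ cell relative of Hspa4, read 7.59 to 7.76 in WT and 8.57, 7.84 and 8.24 in shSLX1shSLY (0.52, adjusted p = 0.0541), again without overlap.

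The testis DnaJ genes did not move as one. Dnajb7 was at 1.02 (adjusted p = 0.0784), and its 5 arrays of the third set read 6.56 to 6.79 while the 8 others read 4.89 to 5.90. Dnajb3 (0.30), Dnajb8 (0.34 on its brightest probe) and the cysteine string proteins Dnajc5g (0.35) and Dnajc5b (0.10) were closer to WT. Dnajb13, a component of the sperm flagellum, stood at -0.15. The small heat shock protein Hspb9 read 13.58 to 13.96 in WT and 13.43 to 13.50 in shSLX1shSLY, which did not overlap (-0.32, adjusted p = 0.117).

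Of the 8 stress-induced chaperones, Hspa1a and Dnaja1 were not tested, and Hspa1b was the 1 called of the other 6, lower in shSLX1shSLY than in WT. The list's median was -0.27. Hsph1, an Hsp110 that works with Hsp70, read 7.52 to 7.98 in WT and 7.19 to 7.43 in shSLX1shSLY, with no overlap (-0.44, adjusted p = 0.0631). Hspb1 (-0.32), which holds unfolding proteins, and Dnajb4 (-0.22) were lower without passing the test, while Dnajb1 (0.19), the main DnaJ partner of the inducible Hsp70, and Hsp90aa1 (0.08) were close to WT. The list therefore held values on both sides of 0.

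**Figure D4:**
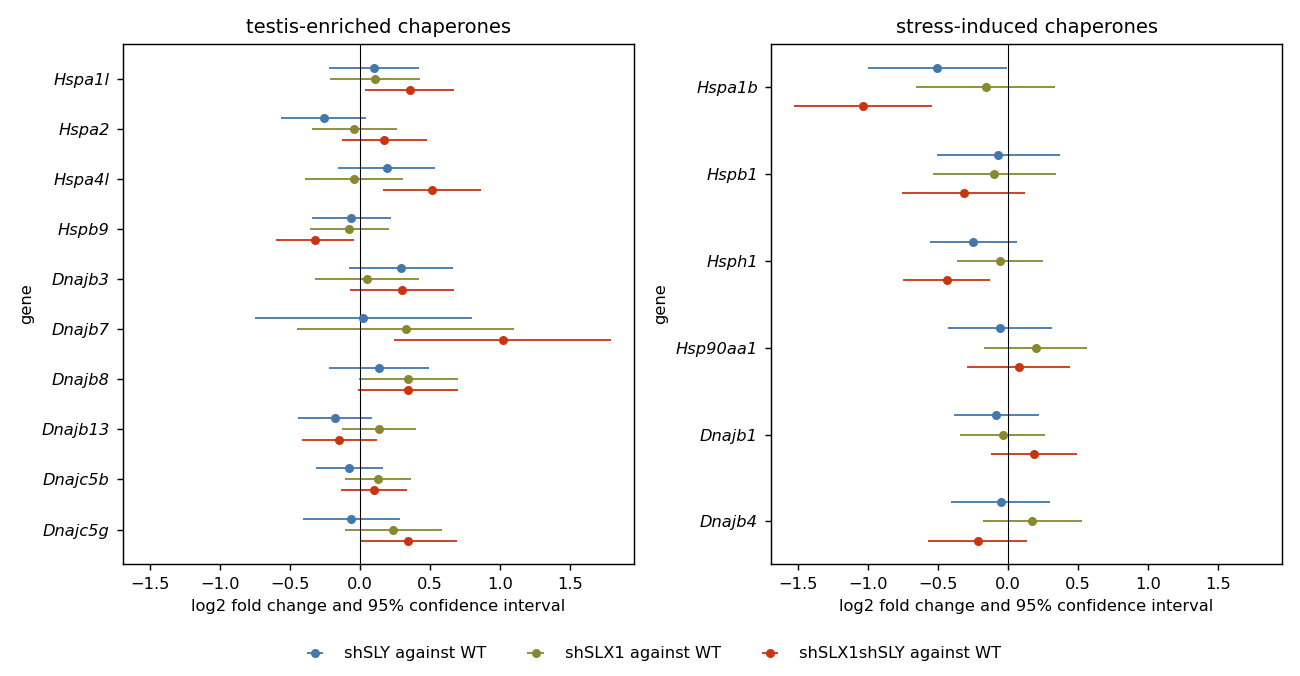
Log2 fold change with its 95% interval for each testis-enriched and stress-induced chaperone, on its brightest probe, in shSLY, shSLX1 and shSLX1shSLY against WT. Hspa1b in shSLX1shSLY (-1.03) is the only one of these called, and the intervals of Dnajb7, Hspa4l, Hspa1l, Hspb9 and Hsph1 in that comparison also leave out 0.

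The remaining families held no further calls in shSLX1shSLY against WT. Among the Hsp70 genes 1 of 11 was called (Hspa1b, lower; median 0.29), and among the 5 small heat shock proteins 0, with a median of -0.32. Hspb7, a small heat shock protein best known from heart muscle, went the other way, from 5.73, 6.26, 7.19 and 7.10 in WT to 7.70, 7.39 and 7.81 in shSLX1shSLY (1.06, adjusted p = 0.0504, limma). Hspb8 (-0.35) and Hspb6 (0.20) were not called. Of the 10 DnaJ B genes and 23 DnaJ C genes none was called, with medians of 0.03 and 0.06. Dnajc3, an ER cochaperone whose promoter holds the ER stress element, stood at 0.10, Dnajc4 at -0.26 and Dnajc5 at 0.06 on its brightest probe, and the other DnaJ A gene tested, the mitochondrial Dnaja3, at -0.24.

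Against the single-transgene groups, fewer members differed. In shSLX1shSLY against shSLY, 0 of 57 were called by limma, where 0.0614% of all genes were called higher and 0.0409% lower. Of the 57, 12 had an unadjusted p under 0.05, and so had 2977 of all 14660 genes. Dnaja2 had a log2 fold change of 1.33 (adjusted p = 0.0917). The shSLY group contained an array of the third set, shSLY replicate 3. Without that array 7 of the 57 members were called, and so were 1863 of all 14660 genes.

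In shSLX1shSLY against shSLX1, 1 of 57 was called higher and 1 lower (1.75% each), where 3.56% of all genes were called higher and 3.98% lower. Hsp90b1 was higher by 0.78 (SE 0.18, adjusted p = 0.0180, limma), and the 3 shSLX1shSLY arrays lay above the 3 shSLX1 arrays. Hspa1b was lower (-0.87, SE 0.25, adjusted p = 0.0420), but its arrays overlapped. With the array set as a block they stood at 0.40 (adjusted p = 0.146) and -0.52 (adjusted p = 0.306). Hspb7 was then called higher (1.66, adjusted p = 0.00209), with shSLX1 replicate 3 at 5.94 and the shSLX1shSLY arrays of the same set at 7.39 to 7.81. It was not called with the third set against the rest as a block (1.26, adjusted p = 0.145).

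Single libraries decided these 2 calls as well. Without shSLX1 replicate 1, 2, or shSLX1shSLY replicate 1 or 3, Hsp90b1 stood at 0.60 to 0.77 with an adjusted p of 0.0590 to 0.0801. The same arrays, left out in turn, gave -0.68 to -0.87 and an adjusted p of 0.114 to 0.178 for Hspa1b, which also missed the threshold without shSLY replicate 1 (adjusted p = 0.0550) or 2 (adjusted p = 0.0521). Over all genes, leaving out shSLX1 replicate 1 or 2 or shSLX1shSLY replicate 1 or 3 left 549 to 661 calls, from 1105. Without shSLX1 replicate 3, 9 of the 57 members were called, and so were 2609 of all 14660 genes.

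The interaction asks whether the effect of both transgenes differed from the sum of the single effects. It called 0 of 57 members by limma, where 0.0887% of all genes were called higher and 1.28% lower. An unadjusted p under 0.05 was found for 1456 of all 14660 genes and for 3 members: Dnaja2 (1.01), Hsp90b1 (0.72) and Hspa2 (0.47). These values are from the brightest probes only, and Dnaja2 and Hspa2 each had another kept probe. The comparisons with WT share the WT arrays and those with shSLX1shSLY share its arrays.

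Probes of the same gene did not always behave alike, and 23 of the 57 genes had several kept probes. In shSLX1shSLY against WT, with every kept probe tested on its own, 12 members had a called probe in place of 4. Of all 20250 kept probes, 1939 were called there. For Hsp90aa1, the inducible cytosolic Hsp90, a dimmer probe gave 1.51 (adjusted p = 0.0405, limma) where the brightest gave 0.08, and for Dnajb4 a second probe gave 1.34 (adjusted p = 0.0359) where the brightest gave -0.22. A probe of Dnajb6, a DnaJ protein that holds back aggregation, gave -1.20 (adjusted p = 0.0257) with the brightest at -0.23. For Hspa8, the constitutive cytosolic Hsp70, 1 probe gave -1.03 (adjusted p = 0.0352), another 0.77 (adjusted p = 0.0537) and the brightest -0.04.

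The testis gene Dnajb8 and the cysteine string protein gene Dnajc5 also split by probe. A second Dnajb8 probe, detected on all 13 arrays, was called lower (-0.75, adjusted p = 0.0426, limma), opposite to the 0.34 of the brightest. It read 7.13 to 7.29 in WT and 6.21 to 6.58 in shSLX1shSLY. A second Dnajc5 probe gave -0.81 (adjusted p = 0.0536) and, against shSLX1, was called lower (-1.08, adjusted p = 0.0303), which made 3 members with a called probe in that comparison in place of 2. Of all 20250 kept probes, 1353 were called in that comparison.

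Several of these probes split by array set. The dimmer Hsp90aa1 probe read 8.32 to 8.68 on the 5 arrays of the third set and 6.14 to 7.36 on the 8 others, and the Dnajb6 probe 6.64 to 6.79 against 7.77 to 8.02. With every kept probe tested and the array set as a block, an alternative added after the data were seen, no member was called in shSLX1shSLY against WT. Of all 20250 kept probes, 37 were.

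Not all of these probes followed the array set, and the second Dnajb8 and Dnajc5 probes did not split fully by it. A probe of Dnajc19 (chr3:34057280-34081354), a mitochondrial DnaJ protein of the inner membrane, did not follow the set either. It was detected on 0 of 4 WT arrays, 1 of 3 shSLY arrays, 3 of 3 shSLX1 arrays and 3 of 3 shSLX1shSLY arrays. It read 4.67, 4.66, 4.74 and 4.66 in WT and 4.61, 4.91 and 4.55 in shSLY. It read 5.62, 5.57 and 6.11 in shSLX1 and 5.09, 5.37 and 6.10 in shSLX1shSLY. All 6 arrays carrying the shSLX1 transgene, in both sets where they occur, lay above all 7 arrays without it.

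The Dnajc19 probe was at least 1.78-fold higher in shSLX1 than in WT and at least 1.5-fold higher in shSLX1shSLY. These are lower bounds, set against the lowest signal of any detected probe or the probe's own where that was higher, since no WT array detected it. The probe passed the detection filter through the groups where it is high, so its values are a description and no p is given. The gene's brightest probe, detected on all 13 arrays, gave log2 fold changes of 0.26 and 0.09 in these comparisons, neither of them called. A further dim probe was also undetected in WT but did not share the pattern by transgene. It was detected on 1 of 3 shSLX1 arrays. It read 4.85 to 5.12 on the 5 arrays of the third set and 4.39 to 4.79 on the 8 others, and no fold is given for it. RefSeq lists a Dnajc19 pseudogene, and which transcript the dim probe reads was not tested.

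**Figure D5:**
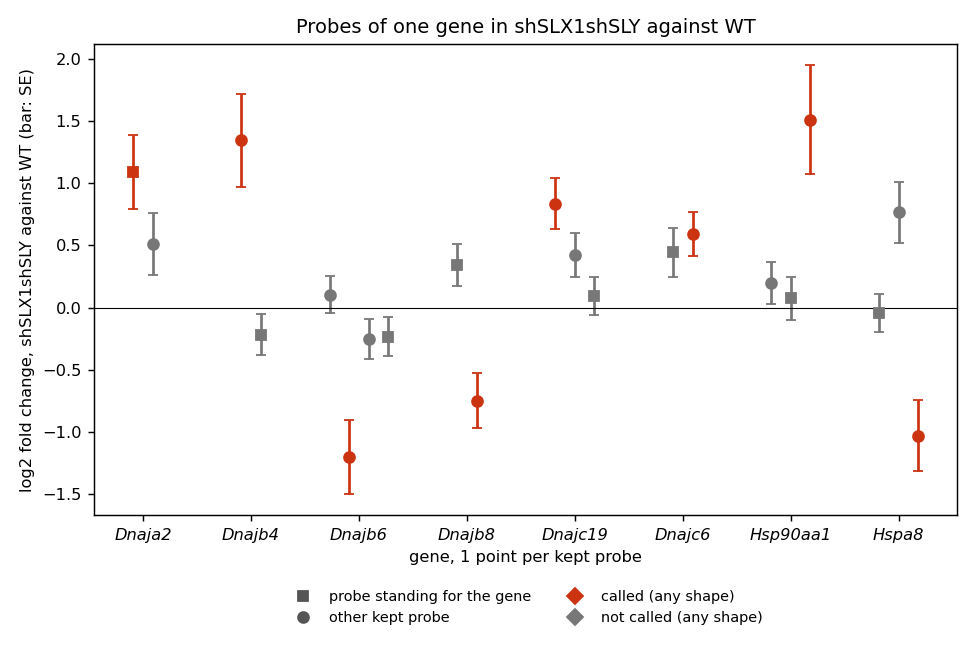
Log2 fold change in shSLX1shSLY against WT, with its SE, for each kept probe of 8 genes whose probes differ in their calls. Probes of Hsp90aa1 span 0.08 to 1.51 and those of Hspa8 span -1.03 to 0.77.

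Genes that act with these chaperones were called in both directions. Of 53 cochaperones, chaperonin subunits and heat shock factors listed, 45 were tested. In shSLX1shSLY against WT 6 of the 45 were called higher and 3 lower, where 4.86% and 4.03% of all genes were, and the list had a median of -0.08. Higher were Sugt1 (1.07, adjusted p = 0.0317, limma) and Ptges3 (0.78, adjusted p = 0.0352), both partners of Hsp90, Hsf2 (1.13, adjusted p = 0.0360), a heat shock factor active in male germ cells, Cct5 (1.46, adjusted p = 0.0464), a subunit of the cytosolic chaperonin, and Hscb and Ahsa2. Lower were Ahsa1 (-1.03, adjusted p = 0.0131), the activator of the Hsp90 ATPase, and Cdc37 and Unc45b, which were detected on no shSLX1shSLY array.

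Every cochaperone called in shSLX1shSLY against WT split by array set too. All 5 arrays of the third set lay above the 8 others for those called higher, and below for those called lower. Over all genes, 7.17% lay above and 7.11% below in this way. Cct5 and Ahsa1 are given as examples. Cct5 read 6.13 to 6.86 in WT, 7.84 to 7.97 in shSLX1shSLY, 7.82 in shSLY replicate 3 and 7.74 in shSLX1 replicate 3. Ahsa1 read 7.81 to 8.13 in WT, 6.67 to 7.06 in shSLX1shSLY, and 6.98 and 6.99 in those 2 arrays. Against shSLX1, Sugt1, Ptges3 and Hscb were called higher and Unc45a lower, where 3.56% and 3.98% of all genes were. In the other 2 comparisons with WT none of the 45 was called. In each, 4 had an unadjusted p under 0.05, where 2215 (shSLY) and 1777 (shSLX1) of all 14660 genes had.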

How the data were processed

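Total RNA of 13 preparations enriched for round spermatids was biotin-labelled and hybridised to Illumina mouse BeadChips. The authors deposited, for each array, bead summary intensities that are not normalized, a detection p-value per probe and their own normalized intensities. The methods name BeadStudio with a custom error model, and the submitters' processing notes name GenomeStudio 2011.1. The deposited summary intensities were corrected by normexp with the detection p-values, quantile-normalized (neqc, offset 16) and put on the log2 scale with limma 3.58.1 in R 4.3.3. The authors' normalized intensities served as an alternative.

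A probe was kept where its detection p was under 0.05 on 3 or more arrays (20250 of 45281 probes), and the brightest kept probe stood for a gene, whatever its target region. Of the probes, 34885 had 1 gene symbol, 18 several and 10378 none, and 34807 were matched to RefSeq by gene ID. Linear models over all 13 arrays with empirical Bayes moderation (residual 9 degrees of freedom, prior 5.64) gave 6 comparisons, each adjusted over 14660 genes or unnamed features. The fits were tested on simulated data. Quantile normalization makes all arrays share 1 distribution, so changes are relative to the other genes. Precision is limited by how many arrays each group has.

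Genes named are those called in any comparison, the testis-enriched and stress-induced lists, the 3 members of each other role list with the smallest p of the moderated F test, and genes whose probes differ in their calls. Cochaperones are named where called. Members and lists were chosen with earlier results of these data known. The labels give replicate numbers but no shared litter or day. Deviations of same-numbered arrays correlated at 0.11, 0.25 and 0.25 between WT and shSLY, where the replicate block changed no member call, and at 0.17, 0.27 and 0.46 between shSLY and shSLX1, which were not compared directly. In the other pairs of groups at least 1 correlation was under 0.1. Members not analysed here were Hsp90ab1, Dnaja4, Dnajb11, Dnajc13, Dnajc21 and Dnajc22.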

Additional observations from a re-analysis of the deposited data

How the results depend on the processing

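In shSLY against WT no alternative called a member, and in no comparison did a called value change its sign. In shSLX1 against WT, testing every kept probe called 1 gene (Dnajc19), as it did with the array set as a block, an alternative chosen after seeing the data. That probe passed the detection filter only through the groups where it is high. Over all kept probes, 295 were called without that block and 420 with it. In shSLX1shSLY against WT, against 4 calls, the count was 2 with no detection filter, 12 with every kept probe, 8 with only the groups compared, 8 with array quality weights, 7 with an intensity-dependent prior variance, 0 once array set was a block, 0 with every kept probe and that block, and 0 with the third set against the rest as a block, also chosen after seeing the data. Over all features tested, 1303 were called in the main fit. In those settings, in the same order, 681, 1939, 1897, 2200, 1371, 44, 37 and 15 were. The member count ran from 0 to 8 on leaving out 1 array: 0 without WT replicate 4 or shSLX1shSLY replicate 1 or 3, 1 without WT replicate 1, 2 or 3, 2 without shSLX1shSLY replicate 2, and 8 without shSLY replicate 3 or shSLX1 replicate 3. Over all genes, 1744 were called without shSLY replicate 3 and 1739 without shSLX1 replicate 3. With 8 calls the added genes under both the weights and the smaller fit were Dnajb7, Hspa4, Hspa5 and Hspb7. Neither the authors' normalized values nor uncorrected intensities moved the count of 4, but both lost Hspe1 (log2 fold change 0.54 and 0.55, under the fold threshold) and gained Hspb7.

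In shSLX1shSLY against shSLY the count was 12 with array quality weights, 1 with the replicate block and 0 to 7 on leaving out 1 array. Over all genes it was 15 in the main fit, 2597 with the weights, 62 with the replicate block and 0 to 1863 on leaving out 1 array. In shSLX1shSLY against shSLX1, against 2 calls, it was 1 with median scaling (Hsp90b1, higher), 1 with no detection filter, 0 with only the groups compared, 8 with weights, 1 with the array set as a block (Hspb7), 1 with every kept probe and that block, 0 with the third set against the rest as a block, and 0 to 9 on leaving out 1 array. Over all features, 1105 were called in the main fit of that comparison. In those settings, in the same order, 861, 803, 580, 2368, 763, 882, 639 and 549 to 2609 were. The interaction gave 4 members with weights and 0 to 1 on leaving out 1 array. Over all genes it gave 201 in the main fit, 1249 with weights and 111 to 270 on leaving out 1 array. The weights were lowest for shSLY replicate 3 (0.24) and shSLX1 replicate 3 (0.30), the single-transgene arrays of the third set. The replicate block gave 6 calls in shSLX1shSLY against WT, losing Hspe1 and gaining Dnajb7, Hspa4 and Hspb7, and 3 in shSLX1shSLY against shSLX1. Over all genes it gave 1293 and 1187 calls in these comparisons. Replicate numbers do not pair these groups, so the blocked counts are given as values only. The causes of these changes were not tested. Median scaling moved the median of all genes by over 0.1 only in shSLX1shSLY against shSLY, from -0.02 to 0.09, where it called 0 members.

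Dim probes such as that of Dnajc19 have only a bound where they are not detected. With no WT array in the third set, shSLX1shSLY against WT and the array set are separated only through shSLY replicate 3 and shSLX1 replicate 3.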
